A study of Homo sapiens with 4 samples.

Results

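The Krüppel-like factors (KLFs) examined here are 10 genes of a family of transcription factors, KLF2, KLF4, KLF5, KLF6, KLF7, KLF9, KLF10, KLF11, KLF13 and KLF16. They were taken by gene symbol from an expression table of 20804 genes, and each of the 10 symbols had 1 row. RNA was sequenced from MDA-MB-231, an established line of triple-negative breast cancer, in 2 libraries whose genotype is labelled miR-3662-KO (KO) and in 2 libraries labelled WT. All 4 libraries are of the same parental line, no treatment or time is labelled, and how the KO cells were made, whether they are 1 clone, and whether the libraries are separate cultures is not stated in the labels. The study's title names CRISPR interference and activation and its design text mentions sorting by microRNA activity, so KO is used here only as the sample labels use it. The p-values below therefore measure only the spread between these libraries, which may be technical. The mature microRNA is not measured by this table, so the genotype could not be checked against it.

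KLF proteins carry zinc fingers of the C2H2 type at their C-terminal end, with which they bind GC-rich and CACCC-type sequences in promoters, as do the related SP factors. The rest of the protein decides whether a member activates or represses. KLF2, KLF4, KLF5, KLF6 and KLF7 are mostly known as activators, KLF3, KLF8 and KLF12 recruit the CtBP corepressors, and KLF9, KLF10, KLF11, KLF13 and KLF16 recruit the SIN3A corepressor. Many KLF genes are switched on quickly by growth factors, hormones or stress, and in breast cancer cells individual members have been described as promoting or restraining growth.

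Values are FPKM (fragments mapped to a gene, scaled by transcript length and by the depth of the library), as the authors deposited them. They are not scaled to a common total, so comparison between libraries is only approximate. The whole table summed to 528986 and 544650 FPKM in KO and to 504102 and 520527 FPKM in WT. The steps between low values fitted best at a depth of 26800000 to 27100000 fragments per library, an estimate, since depth is not stated. Of the markers of the line VIM was the most abundant, at 1120 to 1191 FPKM in KO and 1162 to 1321 FPKM in WT. EGFR was the least abundant, at 13.3 to 13.9 FPKM in KO and 16.6 to 19.9 FPKM in WT. ESR1 was at 0.01 FPKM or less and CDH1 at 0.03 FPKM or less in every library, and PGR had no row. Of the 6 markers of the line, CAV1 alone passed (16.7%, against 27.0% over all tested genes), with a log2 fold change of 1.35. EGFR (-0.40) and MSN (-0.32) lay lower in both KO libraries and did not pass, while VIM, CD44 and AXL overlapped between the groups. Of markers of other cell types, the blood list summed to 0.07 to 0.19 FPKM in KO and 0.13 to 0.25 FPKM in WT, with PTPRC and CD3E at 0. The endothelial list summed to 0.39 to 0.71 FPKM in KO and 0.18 to 0.26 FPKM in WT. Of its 5 markers 3 lay higher in both KO libraries, among them PECAM1 (0.17 and 0.29 FPKM, against 0.02 and 0.03 FPKM in WT), and 1 lay lower. Over all tested genes KO lay above in 39.3% and below in 28.7%. No marker of the endothelial list reached 1 FPKM, so 0 of them were tested. The fibroblast list summed to 0.33 to 0.38 FPKM in KO and 1.14 to 1.54 FPKM in WT, with COL1A2 at 0. Most of this sum was COL1A1, which was lower in KO (log2 fold change -0.79) and entered the test only through WT. The luminal list summed to 31.7 to 37.7 FPKM in KO and 25.7 to 33.5 FPKM in WT. Most of this sum was KRT19 and ERBB2, and neither passed. KRT19 was at 17.42 and 26.51 FPKM in KO, against 13.99 and 19.92 FPKM in WT. ERBB2 was at 11.44 and 8.55 FPKM in KO, against 8.59 and 10.45 FPKM in WT. GATA3 lay higher in both KO libraries (1.49 and 1.83 FPKM, against 1.14 and 1.18 FPKM in WT) and did not pass. EPCAM was lower in KO (log2 fold change -0.83) and entered the test only through WT. The part of these shifts in the KLF values was not tested. In bulk RNA, fewer expressing cells and less RNA per cell cannot be told apart.

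The microRNA named in the genotype is shown first, because its seed defines the sites looked for in the KLF transcripts. It is a mature RNA of 24 bases from chr6:134979355-134979378, minus strand (RefSeq, GRCh38.p14), and the capitals mark its seed, positions 2 to 8.
hsa-miR-3662: gAAAAUGAugaguagugacugaug
The 7 bases that pair with this seed, TCATTTT, were searched for in 1 3′ UTR per KLF gene, the longest in GENCODE 29. KLF5, KLF7 and KLF11 held 2 matches each and KLF10 held 1. KLF2, KLF4, KLF6, KLF9, KLF13 and KLF16 held none. Among all tested genes with an annotated 3′ UTR, 33.4% held at least 1 match. The matches in KLF5 and KLF11 are printed with their surroundings and with the match in capitals, since these are the tested members with more than 1.
KLF5, chr13:73076056-73076084, plus strand: aaagtgtttggTCATTTTaagaatctgga
KLF5, chr13:73076749-73076777, plus strand: taaacgcaatgTCATTTTtaaaaagaagg
KLF11, chr2:10052922-10052950, plus strand: ttctagctagaTCATTTTgcagccttctt
KLF11, chr2:10053637-10053665, plus strand: tgcctttctgtTCATTTTgtttgaaggaa
Of these, only the first KLF5 match is followed by an A, which many models of microRNA targeting count in favour of a site. A match describes the letters of the transcript and does not show that the microRNA acts there.

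The comparison of KO with WT asked which KLF transcripts differ between the genotypes. KLF6 and KLF13 rose and KLF16 fell, each by less than 1 on the log2 scale, and the other tested members did not pass. Of the 10 members, 9 reached 1 FPKM in at least 2 libraries and were tested, and 3 of the 9 changed at an adjusted p under 0.05 (limma on log2(FPKM + 1), Benjamini-Hochberg over all 11786 tested genes). Over all tested genes 27.0% changed, 16.2% upward and 10.8% downward, so 3 of 9 (33.3%) is close to the background and the KLF genes do not stand out by their number of changes. The median log2 fold change of the tested members was 0.15, against 0.074 over all tested genes.

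**Figure D1:**
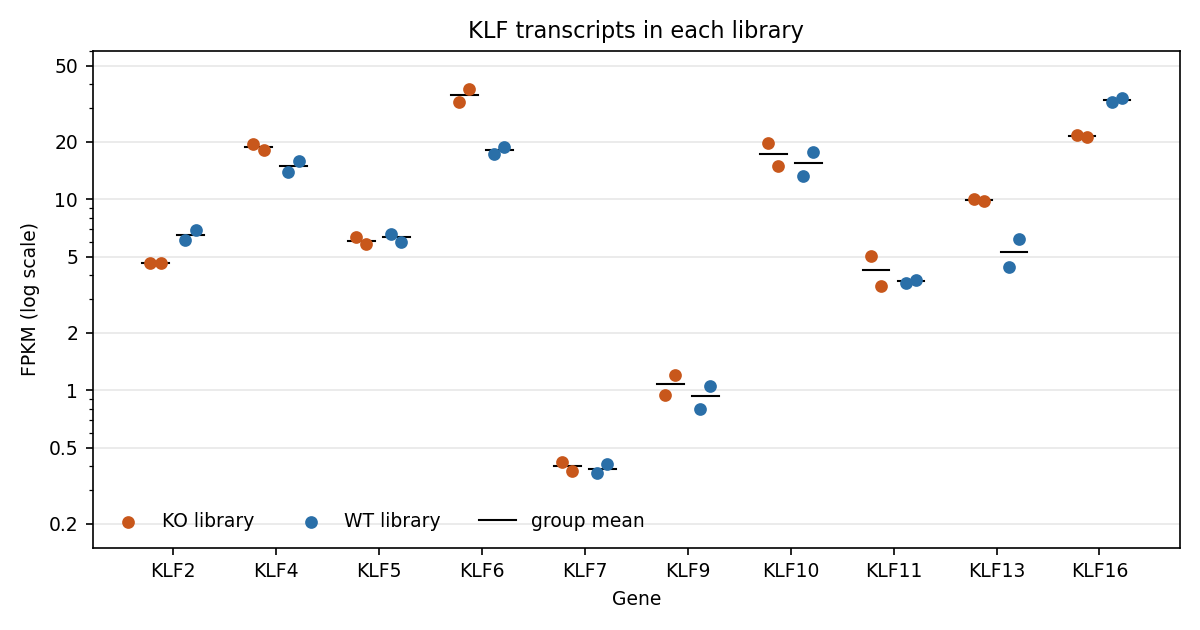
FPKM of each KLF gene (vertical axis, log scale) in the 2 KO libraries (orange) and the 2 WT libraries (blue), with black lines at the group means. KLF6, KLF13 and KLF4 lie higher in both KO libraries than in both WT libraries, KLF2 and KLF16 lie lower, and KLF7 stays near 0.4 FPKM throughout.

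KLF6 had the largest change of the tested members. It encodes an activator made in most tissues, known both as an early responder to injury and as a growth suppressor in several tumours. KLF6 was at 32.4 and 37.7 FPKM in the KO libraries, against 17.2 and 18.9 FPKM in the WT libraries. Both KO values lay above both WT values, and the gap was far wider than the spread within either group. Group means were 35.1 ± 3.77 FPKM in KO and 18.04 ± 1.19 FPKM in WT (SD, n = 2 each), a ratio of 1.94 and a log2 fold change of 0.92 ± 0.14 (SE, limma, adjusted p 0.0047). Only 6.07% of tested genes had a larger change in either direction. At the fitted depth, the KLF6 values correspond to about 4004 and 4628 fragments in KO and 2138 and 2338 fragments in WT, a counting error of 1.47% to 2.16% of a value. The row joins 4 transcripts, and splice forms of KLF6 were not separated.

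KLF6 lies at chr10:3775996-3785281 on the minus strand (GRCh38, GENCODE 29). Its promoter is printed because KLF6 changed most, as the 250 bases before the RefSeq start (chr10:3785210-3785459, GRCh38.p14), with the GC box GGGCGGG, or its reverse complement CCCGCCC, in capitals.
KLF6 promoter: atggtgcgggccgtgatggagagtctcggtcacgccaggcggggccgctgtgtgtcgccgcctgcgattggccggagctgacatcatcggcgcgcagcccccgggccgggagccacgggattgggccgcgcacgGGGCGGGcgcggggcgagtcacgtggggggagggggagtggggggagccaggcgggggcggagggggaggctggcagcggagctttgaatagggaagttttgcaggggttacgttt
The window held 1 GC box and no CACCC on either strand. Of 35116 RefSeq promoter windows of the same length, 31.5% held the GC box and 54.7% held CACCC.

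Among the other activators, KLF4 and KLF2 are close relatives that endothelial cells induce together, and KLF4 is also one of the factors used to reprogramme cells to pluripotency. KLF4 was at 19.47 and 18.03 FPKM in KO, against 13.93 and 15.93 FPKM in WT. Both KO values were the higher ones, but the log2 fold change of 0.31 ± 0.14 (SE) did not pass (limma, adjusted p 0.129). KLF2 was at 4.67 and 4.64 FPKM in KO, against 6.16 and 6.94 FPKM in WT. Here both KO values were the lower ones, and the log2 fold change of -0.42 ± 0.15 (SE) did not pass either (adjusted p 0.0717). After a correction for the GC content of transcripts, which left its fold change at -0.42, KLF2 passed (limma, adjusted p 0.0291). KLF2 also passed with the crossed block (0.0479), in which libraries of unlike number are paired. That block was added after seeing the data, so passing with it is not used as support here or below.

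The KLF2 promoter is printed because KLF2 and KLF4 are known targets of the ERK5 kinase and its MEF2 factors (chr19:16324576-16324825, plus strand, GRCh38.p14). Capitals mark GC boxes and 1 match to the MEF2 motif, which starts 120 bases before the RefSeq start.
KLF2 promoter: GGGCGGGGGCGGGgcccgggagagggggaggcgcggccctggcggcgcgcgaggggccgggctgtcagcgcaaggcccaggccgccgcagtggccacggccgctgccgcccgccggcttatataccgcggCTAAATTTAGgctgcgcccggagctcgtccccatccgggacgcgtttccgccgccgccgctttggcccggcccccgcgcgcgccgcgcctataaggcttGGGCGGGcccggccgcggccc
This window held 3 GC boxes, as did that of KLF4, which had no MEF2 match. The MEF2 motif occurred in 0.515% of all RefSeq windows.

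KLF5 promotes proliferation of epithelial cells, and its protein is removed by the ubiquitin ligases WWP1 and FBXW7. Its transcript was at 6.33 and 5.85 FPKM in KO, against 6.63 and 6.01 FPKM in WT. The groups overlapped, with a log2 fold change of -0.046 and a 95% interval from -0.39 to 0.29 (limma, adjusted p 0.839). KLF7, best known from developing neurons, was at 0.42 and 0.38 FPKM in KO, against 0.37 and 0.41 FPKM in WT. It stayed under the limit of 1 FPKM and was not tested, and its values correspond to only 54 to 61 fragments per library.

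Of the members that bind SIN3A, KLF13 rose and KLF16 fell, while KLF9, KLF10 and KLF11 did not pass. KLF13, a repressor in most settings that activates the chemokine gene CCL5 in T lymphocytes, was at 9.99 and 9.83 FPKM in KO, against 4.43 and 6.20 FPKM in WT. It lies at chr15:31326855-31435665 on the plus strand (GRCh38, GENCODE 29). The KO libraries were nearly equal and lay above both WT libraries, which differed 1.40-fold from each other. Means were 9.91 ± 0.113 FPKM in KO and 5.32 ± 1.25 FPKM in WT (SD, n = 2 each), and KLF13 rose by 0.80 ± 0.17 (log2 fold change ± SE, limma, adjusted p 0.0151). KLF13 did not pass when the first WT library was left out (0.60, adjusted p of 0.0642), nor without the first KO library (0.79, 0.0615) or the second (0.81, 0.0682).

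KLF16, a small member that also binds SIN3A, was at 21.6 and 21.1 FPKM in KO, against 32.2 and 34.0 FPKM in WT. Libraries of the same group lay close together, and both KO values lay below both WT values. It lies at chr19:1852399-1863568 on the minus strand (GRCh38, GENCODE 29), with 2 antisense genes on the opposite strand, and whether counting used strand is not stated in the labels. Means were 21.4 ± 0.368 FPKM in KO and 33.1 ± 1.27 FPKM in WT (SD, n = 2 each), and KLF16 fell by 0.61 on the log2 scale (SE 0.12, limma, adjusted p 0.0118). Without the second WT library the log2 fold change was -0.57 and the adjusted p 0.0576. KLF16 was the most abundant member in both WT libraries and KLF6 was second, whereas KLF6 was first and KLF16 second in both KO libraries.

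Promoters of KLF13 (chr15:31326585-31326834, plus strand) and KLF16 (chr19:1863580-1863829, minus strand, both GRCh38.p14) are printed because these genes passed in opposite directions, with GC boxes in capitals.
KLF13 promoter: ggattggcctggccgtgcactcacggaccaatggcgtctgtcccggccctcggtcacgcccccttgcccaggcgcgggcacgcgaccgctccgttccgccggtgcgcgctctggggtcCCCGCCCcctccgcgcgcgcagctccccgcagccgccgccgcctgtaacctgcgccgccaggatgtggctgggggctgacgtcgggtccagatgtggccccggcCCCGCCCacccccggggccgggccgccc
KLF16 promoter: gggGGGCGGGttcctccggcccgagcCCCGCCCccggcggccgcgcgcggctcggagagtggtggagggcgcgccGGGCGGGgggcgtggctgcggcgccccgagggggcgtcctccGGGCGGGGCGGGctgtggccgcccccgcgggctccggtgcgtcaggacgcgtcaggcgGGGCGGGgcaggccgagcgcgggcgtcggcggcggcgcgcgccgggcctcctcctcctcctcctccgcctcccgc
The KLF13 window held 2 GC boxes and that of KLF16 held 6, some of them overlapping. GC content was 78.8% for KLF13 and 86.4% for KLF16, against 72.4% for KLF6.

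KLF10 and KLF11 were first described as early genes of the TGF-β response. KLF10 was at 19.76 and 15 FPKM in KO, against 13.33 and 17.68 FPKM in WT. Libraries of the same group differed 1.32-fold in KO and 1.33-fold in WT, more than the 1.12-fold difference between the group means. KLF11 was at 5.05 and 3.54 FPKM in KO, against 3.66 and 3.78 FPKM in WT, so that 1 KO library was the highest and the other the lowest of the 4. Neither passed (log2 fold changes 0.16 and 0.15, limma, adjusted p 0.561 and 0.552), and the 95% intervals ran from -0.28 to 0.59 for KLF10 and from -0.26 to 0.56 for KLF11. About 1297 to 1909 fragments stood behind each KLF10 value. KLF9, a gene that glucocorticoids and thyroid hormone induce, was at 0.95 and 1.21 FPKM in KO, against 0.80 and 1.06 FPKM in WT. The groups overlapped, and the log2 fold change of 0.11 did not pass (adjusted p 0.620).

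**Figure D2:**
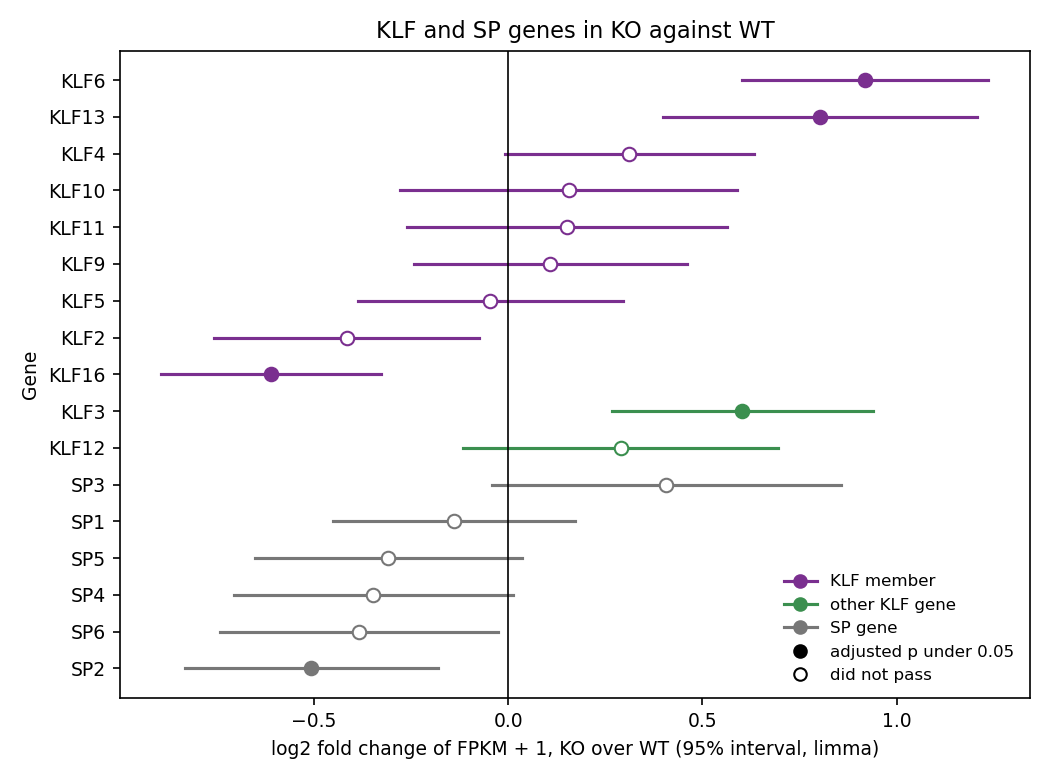
log2 fold change of FPKM + 1 in KO over WT (horizontal axis) with its 95% interval from limma for the tested KLF members (purple), other KLF genes (green) and SP genes (grey). Filled points passed at an adjusted p under 0.05, which are KLF6, KLF13 and KLF3 on the higher side and KLF16 and SP2 on the lower side.

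In 5 of the 9 tested members the KO and WT values did not overlap, 3 with KO above (KLF4, KLF6, KLF13) and 2 below (KLF2, KLF16). Over all tested genes the groups did not overlap in 68.0%, with KO above in 39.3% and below in 28.7%. The share among the members was therefore not above the background.

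**Figure D3:**
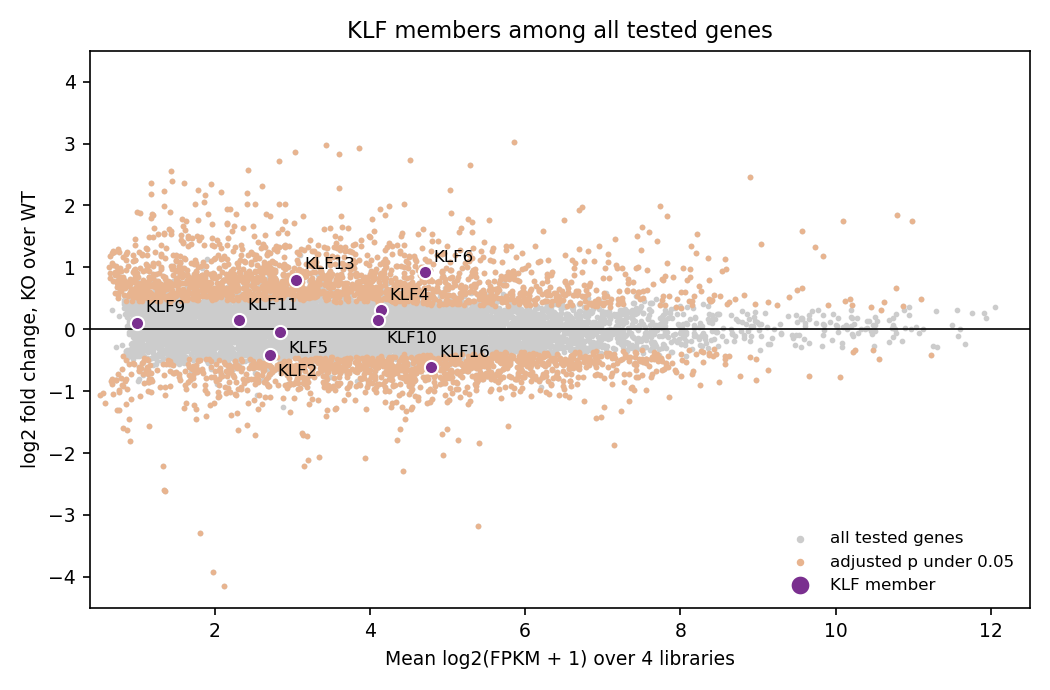
log2 fold change of KO over WT (vertical axis) against the mean log2(FPKM + 1) of the 4 libraries (horizontal axis) for all 11786 tested genes (grey), those with an adjusted p under 0.05 (light orange) and the 9 tested KLF members (purple). KLF6, KLF13 and KLF16 lie among the called genes, and the other members lie within the grey band or at its edge.

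Of the other KLF genes, KLF3 and KLF12 were tested, and KLF3 rose, against 16.2% higher over all tested genes. KLF3, a CtBP-dependent repressor, was at 4.93 and 4.53 FPKM in KO, against 2.76 and 2.78 FPKM in WT, and its log2 fold change was 0.60 ± 0.14 (SE, limma, adjusted p 0.0212). It did not pass when any 1 of the 4 libraries was left out (adjusted p 0.0574 to 0.1004). KLF12 was at 2.06 and 1.48 FPKM in KO and at 1.49 and 1.04 FPKM in WT, and did not pass (0.29, adjusted p 0.246, and 0.064 with the GC correction). KLF8, KLF15 and KLF17 stayed at or under 0.43 FPKM in every library, KLF1 was listed at 0 in 3 libraries and at 0.02 FPKM in the other, and KLF14 and KLF18 had no row.

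The SP factors compete for the same kind of sequence. Of 6 tested SP genes SP2 fell and 0 rose, against 10.8% lower and 16.2% higher over all tested genes. The share called, 16.7%, was below the 27.0% over all tested genes. The median log2 fold change of the SP genes was -0.33, against 0.074 over all tested genes. SP2 was at 18.8 and 15.6 FPKM in KO, against 24.2 and 25.3 FPKM in WT (-0.51, limma, adjusted p 0.0335), and did not pass without the first WT, the second WT or the second KO library (0.0946, 0.123 and 0.153). SP1, the most studied member, was at 10.5 and 10.6 FPKM in KO and 11.8 and 11.6 FPKM in WT (-0.14, adjusted p 0.464). SP3 (0.41), SP4 (-0.35), SP5 (-0.31) and SP6 (-0.38) did not pass. With the GC correction SP4 passed (-0.58, limma, adjusted p 0.0112) and SP3 had a log2 fold change of 0.19, while SP3 passed with the crossed block (0.0379). SP4 reached 1 FPKM only in WT and entered the test through that group (0.76 and 0.90 FPKM in KO, 1.55 and 1.12 FPKM in WT). SP7 was at 0.01 FPKM or less and SP8 at 0 in all libraries, and SP9 had no row.

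Genes near a KLF gene were examined because they share its stretch of chromosome. Over all tested genes 16.2% were higher and 10.8% lower. Within 1 Mb of KLF6, 3 genes were tested, and 0 of them changed (median log2 fold change -0.085). Around KLF13, 9 genes were tested, of which 1 rose and 0 fell (median 0.051). Around KLF16, in a gene-dense part of chromosome 19, 55 genes were tested, of which 6 rose and 14 fell (median -0.16). Around KLF2, also on chromosome 19, 27 genes were tested, of which 6 rose and 8 fell (median -0.21). Around KLF4, 2 genes were tested, of which 1 fell (median -0.38), and around KLF11, 14 genes, of which 3 fell and 0 rose (median -0.18). Around KLF5, 5 genes were tested and 0 changed (median 0.092), and around KLF9, 2 genes, of which 0 changed (median 0.23). Around KLF10, 8 genes were tested, of which 2 rose and 1 fell (median 0.015). KLF3, on chromosome 4, lay among 15 tested neighbours of which 6 rose and 0 fell (median 0.45). The part of the neighbourhood in the values of the KLF genes was not tested.

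**Figure D4:**
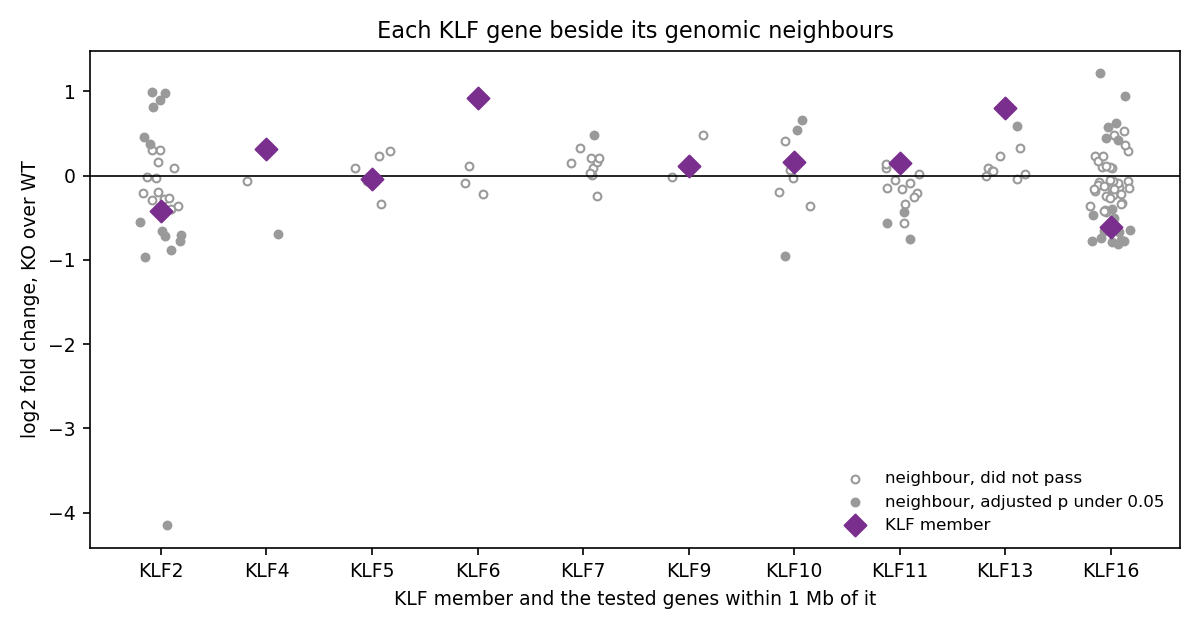
log2 fold change of KO over WT (vertical axis) for each tested KLF gene (purple diamonds) and for all tested genes within 1 Mb of it (circles, filled where the adjusted p was under 0.05). KLF7 has no diamond because it was not tested. KLF6 lies above all 3 of its neighbours and KLF13 above all 9 of its own, while KLF16 lies among many neighbours that were lower in KO.

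Among proteins that work with KLF factors, 12 corepressors and coactivators were tested, of which 1 rose and 1 fell (median log2 fold change -0.11), against 27.0% called over all tested genes. The acetyltransferase gene KAT2B rose by 0.66 (limma, adjusted p 0.0154) and the acetyltransferase gene CREBBP fell by 0.67 (0.0178). KAT2B did not pass without the second WT, the first KO or the second KO library (adjusted p 0.0581 to 0.0743), nor CREBBP without the first WT or the second KO library (0.0688 and 0.106). SIN3A was at 13.7 ± 0.686 FPKM in KO and 17.7 ± 1.39 FPKM in WT (SD, n = 2 each) and did not pass (-0.35, adjusted p 0.0967) except with the GC correction (0.0431), nor did its partner SAP30 (0.25, 0.260). Of 9 tested genes of KLF protein turnover, 2 rose and 0 fell (median 0.16). These are 22.2%, against 27.0% called and 16.2% higher over all tested genes, so the list does not stand out. FBXO32, a ubiquitin ligase subunit reported to act on KLF4, rose to 6.56 ± 1.76 FPKM in KO, against 0.82 ± 0.523 FPKM in WT (2.06, adjusted p 0.0022). BAP1, a deubiquitinase reported to stabilise KLF5, rose by 0.42 at an adjusted p of 0.0496, and did not pass in 9 of 12 alternative analyses, where the adjusted p was 0.0529 to 0.251. The ligase genes SMURF2 (-0.42, 0.0634) and SMURF1 (-0.31, 0.123) did not pass. SMURF2 passed after scaling by the median of ratios (adjusted p 0.0394), with the GC correction (0.0148) and with the crossed block (0.0247).

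Inputs that are known to control KLF genes were described in the same way. Of 8 tested genes of the ERK5 route to KLF2 and KLF4, MEF2A rose by 0.73 (limma, adjusted p 0.0224) and 0 fell (median 0.11), 1 of 8 against 27.0% of all tested genes. MEF2A lost its call when the second WT or the first KO library was left out (adjusted p 0.0841 and 0.113). KRIT1, which restrains the route in endothelium, did not pass (0.46, 0.0664), and had a log2 fold change of 0.26 with the GC correction and an adjusted p of 0.0393 with the crossed block. MEF2D (-0.085) and CCM2 (-0.057) did not pass either. Of 6 tested genes of the glucocorticoid response that induces KLF9, 2 rose and 1 fell (median 0.0094), against 16.2% higher and 10.8% lower over all tested genes. The receptor gene NR3C1 rose by 0.66 (adjusted p 0.0131) and the target TSC22D3 by 0.77 (0.0482), PER1 fell by 0.69 (0.0178), and FKBP5 did not pass (-0.32, 0.105) except with the GC correction (0.0223). TSC22D3 did not pass without the first WT library (0.44, limma, adjusted p 0.191), the first KO library (0.59, 0.197) or the second (0.95, 0.0789), nor with a pseudocount of 0.1 (0.0541) or after scaling by the median of ratios (0.0616). NR3C1 lost its call when the second WT library or either KO library was left out (0.0546 to 0.0596), and PER1 without the second WT or the second KO library (0.0626 and 0.113).

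Of 7 tested genes of the early TGF-β response, 4 fell and 1 rose, with a median of -1.06, against 10.8% lower and 16.2% higher over all tested genes. The list was chosen with earlier results of these data known, so its share is not used as support. SMAD7 (-0.29, limma, adjusted p 0.162) and SKIL (-0.18, 0.490) did not pass. ID3 fell by 1.84 (limma, adjusted p 0.0015) and ID1 by 1.42 (0.0054), while TGIF1, a corepressor of SMAD proteins, rose by 0.76 (0.0286) and did not pass without the first WT or the first KO library (0.126 and 0.124). KLF10 and KLF11, which belong to the same response in other cells, did not pass, as given above. Of 8 tested immediate early genes, 3 fell and 0 rose (median -0.48), against the same shares over all tested genes. JUN fell by 0.92 (adjusted p 0.0031) and IER2 by 0.82 (0.0043), whereas JUNB (0.23) and FOS (0.16) did not pass. KLF6, which serum also induces in other cells, rose, as given above. JUN and IER2 are named as the falling genes of lowest p, and JUNB and FOS as the rising ones. That the first pair differs in sign from KLF6 follows from this choice and says nothing about immediate early genes as a group.

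Of 15 tested genes reported elsewhere as targets of KLF factors, 2 rose and 1 fell (median log2 fold change 0.073), which is below the 27.0% called over all tested genes. PLAU, the urokinase gene, which KLF6 has been reported to activate, rose to 435 ± 7.42 FPKM in KO, against 254 ± 64.0 FPKM in WT (0.80, limma, adjusted p 0.0127). ENG, another reported KLF6 target, was at 0.23 and 0.12 FPKM in KO, against 4.03 and 4.80 FPKM in WT. Its log2 fold change was -2.20 (limma, adjusted p 0.000434), and -4.06 with a pseudocount of 0.1. ENG reached 1 FPKM only in WT and entered the test through that group, so its call is not used as support. About 18 and 10 fragments stood behind its KO values. PLAU and ENG are named as the genes of lowest p in each direction. Their opposite directions follow from that choice and say nothing about KLF6 targets as a group. MAOA, which KLF11 and KLF15 have been reported to regulate, rose by 0.56 (adjusted p 0.0276), and did not pass without the first WT library or either KO library (0.0783 to 0.148). S1PR1, a target of KLF2 in lymphocytes and endothelium, was at 0.68 and 0.62 FPKM in KO and 1.47 and 1.07 FPKM in WT. This gene also entered the test only through WT. It did not pass (-0.45, limma, adjusted p 0.0589) except after scaling by the median of ratios (0.0490) or with the GC correction (0.0417).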

How the data were processed

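Gene expression was analysed from a single table of FPKM values, which the authors deposited with 1 column per library. HISAT, StringTie, Cufflinks and GATK and the build hg38 are named in the submitters' processing notes, without roles or versions. Each row pools the transcripts listed for a gene. Values were taken as log2(FPKM + 1), which understates changes of low genes. A gene entered the test if 2 or more libraries reached 1 FPKM. limma 3.58.1 in R 4.3.3 gave two-sided moderated p-values (mean-variance trend on, no further scaling, no covariate), adjusted by Benjamini-Hochberg over all 11786 tested genes and called under 0.05. The fit was tested on simulated data. Other steps ran in Python 3.11.15 and pandas 2.3.3. Alternatives are given in the closing section. The GC correction used the 11428 tested genes (97.0%) with a transcript GC content.

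Read counts were not used here, and no count test was made. Among genes with 1 transcript and 0.05 to 1 FPKM, a depth was sought at which values become whole fragments. At the best depth, 56.4% to 62.1% of 551 to 597 values per library lay within 0.15 of a whole number, against 30% if they were spread evenly. Fragments behind a value are estimates from this depth, and whole reads were not recovered.

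Members and gene lists were chosen with earlier results of these data known. All members and the KLF and SP genes of the table are named. From each other functional list, the text names up to 2 genes per direction, those of lowest p. ATF3 stood in 2 lists. Gene positions and 3′ UTRs are from GENCODE 29 (GRCh38). Promoters and the microRNA are from RefSeq (GRCh38.p14), where 9 of the 10 members had a promoter entry.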

Additional observations from a re-analysis of the deposited data

How the results depend on the processing

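Alternatives were a pseudocount of 0.1, other filters, scaling by the median of ratios, leaving out each library, the replicate number as a block, no mean-variance trend and a GC correction. KLF6 stayed higher in KO in all 12 (log2 fold change 0.81 to 1.03) and passed in 11, with an adjusted p of 0.0730 without the filter on low values. KLF13 and KLF16 kept their direction in all 12 and did not pass in 4 and 2, among them the analysis without the filter (0.121 and 0.0640). Without the filter limma called 0 of 20804 genes and 0 members, although 5620 genes and 5 members had an unadjusted p under 0.05, and the cause was not tested. Leaving out 1 library gave 1411 to 1984 called genes, with the lone library of a group assumed to vary like the other group, and 2 members each time. Between the lowest and highest of these fits, the sign turned for KLF5 (-0.11 to 0.016), KLF10 (-0.036 to 0.35), KLF11 (-0.056 to 0.36), MEF2D (-0.29 to 0.12), CCM2 (-0.20 to 0.084) and JUNB (-0.052 to 0.52), none of which passed. Scaling left 1578 genes higher and 1579 lower, against 1906 and 1278, and gave a median log2 fold change of all genes of 0.017, against 0.074 unscaled. With the replicate block 2864 genes and the same 3 members passed. Libraries of the same number deviated in opposite ways (correlation across genes -0.177), so the labels' numbers were not taken as pairs, and a crossed replicate block, added after seeing the data, called 4170 genes and 4 members. FPKM values carry no counts, so counting error is known only from the fitted depth.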

Other observations

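KLF12, a CtBP-dependent repressor, had 9 matches to the miR-3662 seed in its longest 3′ UTR of 9401 bases. KLF3 had 2 in 3779 bases, KLF7 had 2 in 7076, KLF11 had 2 in 2329, KLF5 had 2 in 1656 and KLF10 had 1 in 1353. These counts were not scaled to the length of the 3′ UTR. FGFBP1, reported as a KLF5 target, was listed at 0.67 and 1.23 FPKM in KO and at 0 in both WT libraries, and was under the limit for testing (a gene chosen after its values were seen). KLF3-AS1, which lies on the strand opposite KLF3, was at 0.05 FPKM or less in every library.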
